A study of Homo sapiens with 17 samples.

Results

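The comparison described here sets 3 RNA-seq libraries of 786-O cells carrying HIF2a guide sg6 against 3 libraries of the same cells carrying HIF2a guide sg4, taken by their column names from the deposited expression table. These 6 libraries are part of 17 in the series. 786-O is an established human clear cell renal carcinoma line. Both guides were delivered with Cas9 in the lentiviral vector pLenti CRISPR-V2 puro, packaged in 293T cells, and infected cells were kept under antibiotic selection. The labels do not describe clones, so the libraries are read as selected populations. The reference group is 3 libraries of 786-O cells carrying a scrambled guide from the same experiment. A separate USP37 experiment has 3 libraries each of guides sg3 and sg9 and 2 of its own scrambled control, and is used here only for side-by-side values. The sequences of the guides, and where they cut, are not analysed here. The labels call the RNA samples triplicates and do not say that each had its own culture, so the p-values reflect the spread between these libraries alone, and that spread may be technical.

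HIF2a is the product of the gene EPAS1. It is an oxygen-regulated transcription factor that pairs with ARNT and binds hypoxia response elements in DNA. The ubiquitin ligase subunit VHL normally marks it for destruction. VHL is inactivated in 786-O cells, as in most clear cell renal carcinomas, so HIF2a accumulates in normal oxygen and drives genes for glucose uptake, angiogenesis, cell cycle entry and lipid handling. 786-O cells make no full-length HIF1A protein, which leaves HIF2a as their main HIF alpha subunit.

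Values are log2-like, taken as deposited after variance stabilisation, and every difference below is on that scale. A gene is called when its Benjamini-Hochberg adjusted p from a limma fit over all 12484 tested genes is under 0.05. Rose and fell are used of calls against the scrambled control, and higher and lower with sg6 of calls between the guides. The depth per library is unknown. In a group of 3, the typical distance of a library from the mean of the other members is the median over genes of the absolute difference. It was 0.187 for sg6 replicate 2, 0.187 for sg6 replicate 3 and 0.142 for control replicate 2, against 0.0896 to 0.120 for the other libraries of the HIF2a experiment. These 3 libraries stand apart, so several of the leading counts, though not all, are also given without them. That leaves 1 sg6 library whose spread is taken from the other groups. All 8 markers listed for 786-O cells, which include PAX8, PAX2 and VIM, passed the filter on low values. None of the 7 markers of 293T packaging cells and none of the 6 leukocyte markers passed it. Of 5 fibroblast markers 1 passed, LUM, a matrix proteoglycan named here after its values were seen. It fell with both guides (-1.89 with sg4 and -1.46 with sg6) and was not called between them, at 0.43 (SE 0.14, adjusted p = 0.052).

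EPAS1 mRNA fell with both guides and fell further with sg4. Its values were 9.70, 9.49 and 9.43 with sg4, 10.44, 10.11 and 10.48 with sg6, and 11.96, 12.01 and 11.76 in the control. The 3 groups did not overlap, and sg6 lay between sg4 and the control in every library. The group means were 9.54 ± 0.14 (SD, n = 3) with sg4, 10.34 ± 0.20 (SD, n = 3) with sg6 and 11.91 ± 0.13 (SD, n = 3) in the control. Read as folds on this scale, EPAS1 mRNA stood at 19.3% of the control with sg4 and at 33.7% with sg6. The difference sg6 minus sg4 was 0.81 (SE 0.12, adjusted p = 0.000154), a 1.75-fold higher level, and was 0.74 to 0.92 when each library was left out in turn. Without the 3 libraries that stand apart it was 0.91 (adjusted p = 0.00025). The transcript level of a gene cut by Cas9 does not measure the protein, and HIF2a protein was not measured in the data used here.

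On chromosome 2, none of the 5 tested genes on either side of EPAS1 was called between the guides by limma (3 of the 10 had an unadjusted p under 0.05, as did 24.2% of all tested genes). Their differences ran from -0.35 for PIGF (SE 0.14, adjusted p = 0.118) to 0.35 for CAMKMT (SE 0.16, adjusted p = 0.185), with a median of 0.16. Neither the HIF2a partner ARNT nor VHL was called: ARNT differed by -0.08 (SE 0.10, adjusted p = 0.684) and VHL by 0.04 (SE 0.10, adjusted p = 0.864). HIF1A was the 1 called gene among 17 tested members of the HIF pathway machinery. Its values were 12.03, 12.08 and 12.03 with sg4, 11.57, 11.76 and 11.37 with sg6, and 10.99, 10.66 and 11.05 in the control. HIF1A mRNA rose with both guides, in the order of the EPAS1 fall, and was lower with sg6 than with sg4 by -0.48 (SE 0.11, adjusted p = 0.00632). The scrambled control of the USP37 experiment had HIF1A at 11.71 ± 0.13 (SD, n = 2), which is 0.81 above the HIF2a control (adjusted p = 2.5e-05).

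**Figure D1:**
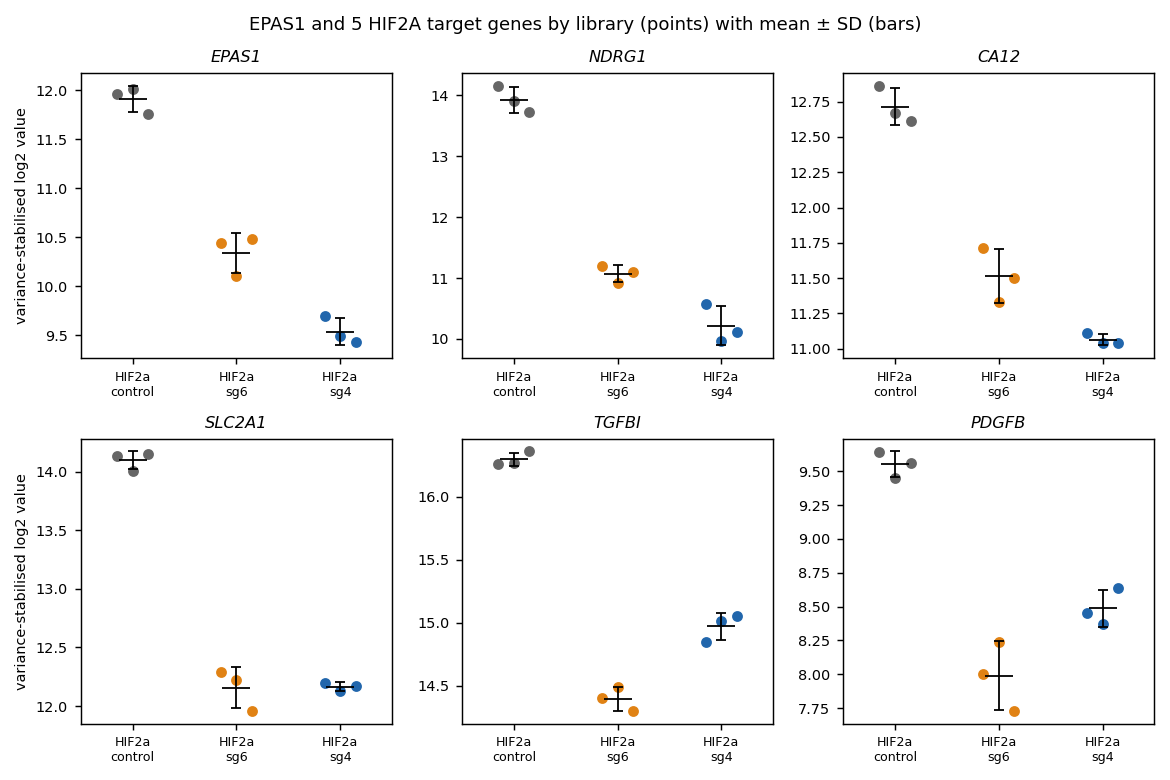
Variance-stabilised log2 values of EPAS1 and 5 HIF2A target genes in the 3 groups of the HIF2a experiment, with libraries as points and mean ± SD (n = 3) as bars; each panel has its own vertical range. EPAS1, NDRG1 and CA12 sit lowest with sg4, SLC2A1 overlaps between guides, and TGFBI and PDGFB sit lowest with sg6.

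Across all tested genes, 1151 of 12484 (9.22%) were called between the guides, 607 higher and 544 lower with sg6. Most differences were small: 42 of the 1151 reached 1 log2 unit, 20 higher and 22 lower. The libraries of the 2 guides did not overlap for 3570 genes (28.6%), while 14 of the called genes had overlapping libraries. Without the 3 libraries that stand apart 413 genes were called, and leaving out sg4 replicate 2 gave 500. Each called gene was then placed by its own calls against the shared scrambled control. In 109 genes (0.873% of all tested) both guides were called on the same side and the change was larger with sg4, which is the order of EPAS1. In 126 genes (1.01%) the change was larger with sg6, the reverse of that order. Another 317 genes (2.54%) were called against control with sg4 alone, 389 (3.12%) with sg6 alone and 16 (0.128%) with the guides on opposite sides. The last 194 genes (1.55%) met none of these descriptions. Calls against control covered 25.3% of tested genes with sg4 and 29.0% with sg6. Both guides share the control libraries, so the single-guide values are set side by side and no overlap between them was tested.

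The order of EPAS1 was the more frequent one among large falls. It was not the general order of the genes that responded to its guides. Among genes called in the mean of both guides, the change was smaller with sg6 in 50.2% of 1813 falls and 41.8% of 2006 rises. The mean of both guides was called against control for 30.6% of tested genes. Among 178 of these that fell by at least 1, the median change was -1.60 with sg4 and -1.50 with sg6. The median difference sg6 minus sg4 was 0.12, against -0.01 over all tested genes. Of these, 31 were higher and 15 lower with sg6, which is 25.8% called, against 9.22% of all tested genes. The other 132 were not called between the guides. The fall was the smaller with sg6 in 117 of the 178 (65.7%). The EPAS1 difference was 0.41 times its own mean fall, and over the 178 genes the median of that ratio was 0.07. Among 205 genes that rose by at least 1, the median rise was 1.24 with sg4 and 1.35 with sg6, so the larger median rise was with the guide that left more EPAS1 mRNA. Of these, 39 were higher and 26 lower with sg6, which is 31.7% called. The rise was the smaller with sg6 in 83 of the 205 (40.5%). The mean of both guides and their difference are orthogonal contrasts of the same libraries. A mean of this size does not require a change with each guide. HS6ST2 is among the 178 by its mean of -1.51, with -3.12 with sg4 and 0.09 with sg6. Such genes were not separated from graded ones in these counts.

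**Figure D2:**
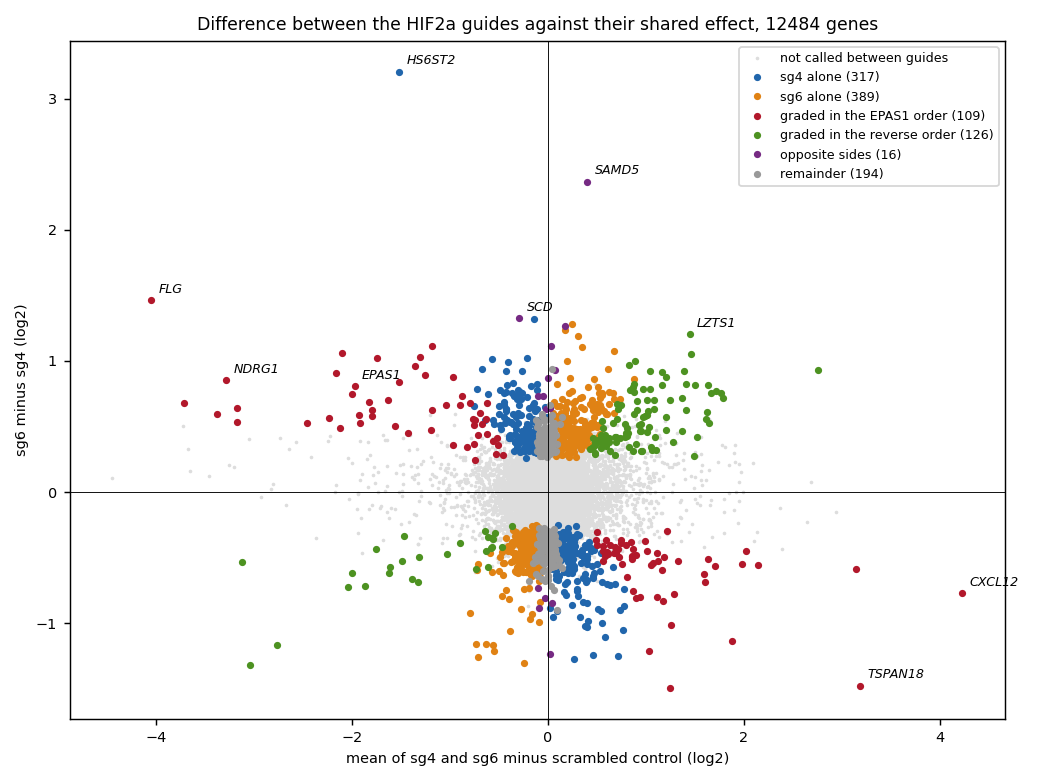
Each point is 1 tested gene: the horizontal axis is the mean of both guides minus the scrambled control and the vertical axis is sg6 minus sg4, both in log2 units. Genes called between the guides are coloured by class, with 109 graded as EPAS1 is and 126 in the reverse order. The largest differences, HS6ST2 and SAMD5, lie away from the genes with the largest mean changes.

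Genes graded in the order of EPAS1 included several with large shared falls. FLG encodes filaggrin, a structural protein of keratinised epithelium. It stood at 7.11, 7.26 and 7.50 with sg4, 8.73, 8.33 and 9.22 with sg6, and 11.98 to 12.20 in the control. No library of the 3 groups overlapped, and the difference between the guides was 1.47 (SE 0.18, adjusted p = 2.29e-05). ALDH1A1, a retinaldehyde dehydrogenase, fell with both guides (-2.63 with sg4 and -1.57 with sg6). INSIG1, which restrains the processing of sterol regulatory element binding proteins, fell with both guides (-1.82 with sg4 and -0.79 with sg6). SLITRK4, a neuronal transmembrane protein, fell as well (-1.73 and -0.62). The sg6 minus sg4 differences of these last genes were 1.06, 1.03 and 1.12 (adjusted p = 1.63e-05, 1.45e-06 and 1.15e-05). FLG differed by -2.93 between the 2 scrambled controls of the series (adjusted p = 2e-09).

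Rises graded in the same order were led by TSPAN18, a tetraspanin membrane protein. It stood at 10.00, 10.28 and 10.28 with sg4, 8.70, 8.75 and 8.68 with sg6, and 6.16 to 6.32 in the control. All 3 groups were apart, with a guide difference of -1.48 (SE 0.13, adjusted p = 1.22e-06). BRINP2, a neuronal secreted protein, rose by 2.00 with sg4 and by 0.51 with sg6. MMP1, interstitial collagenase, rose by 1.64 and by 0.43. SLPI, a secreted leukocyte protease inhibitor, rose by 2.45 and by 1.31. Of the 109 genes in this order, 52 fell and 57 rose. In the USP37 experiment, where EPAS1 itself differed by -0.72 (adjusted p = 6.6e-05) between the guides and their control, 78 of the 109 were called. That is 71.6%, against 44.3% of all tested genes, 63.5% of the genes graded in the reverse order, 57.4% of those called with sg4 alone and 51.7% with sg6 alone. In the order of EPAS1, 59 of the 78 called genes moved the way they had moved with the HIF2a guides. So did 132 of the 182 called genes of the class with sg4 alone, and 92 of the 201 with sg6 alone. FLG was among the 19 genes in the order of EPAS1 that moved the other way, at 0.78 (adjusted p = 0.00147). The share that moved the same way over all tested genes was not counted, so these counts have no background. Without the 3 libraries that stand apart 60 genes were graded in this order.

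Genes graded in the reverse order were more often rises: 98 of the 126 rose and 28 fell. LZTS1, a leucine zipper protein linked to growth control, stood at 7.95, 7.93 and 8.12 with sg4, 9.04, 9.02 and 9.54 with sg6, and 6.98 to 7.25 in the control. Its guide difference was 1.20 (SE 0.15, adjusted p = 2.46e-05), and no group overlapped another. GPRC5C, an orphan receptor, rose by 0.93 with sg4 and by 1.99 with sg6. PLEK, which encodes pleckstrin, rose by 0.40 and by 1.39. DSP, the desmosomal protein desmoplakin, fell with both guides (-2.18 with sg4 and -3.35 with sg6). In the USP37 experiment 80 of the 126 were called, of which 23 moved the way they had moved with the HIF2a guides and 57 the other way. With the replicate number as a block in the fit, 78 genes were graded in the reverse order, and without the 3 libraries that stand apart there were 47. Of the 126 genes, 65.1% were also called between the 2 scrambled controls of the series, against 40.5% of all tested genes. The share was also above that background in the other classes, at 53.2% in the order of EPAS1, 52.7% with sg6 alone and 48.6% with sg4 alone, and it was 52.5% over all genes called between the guides. Whether the classes differ was not tested.

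HIF2A and clear cell carcinoma targets, the list closest to the protein that was targeted, did not move together between the guides. Of 44 listed genes 35 passed the filter, and 4 were higher and 7 lower with sg6, with a median difference of -0.01. The background over all tested genes was 4.86% higher and 4.36% lower. Against control, 23 of the 35 fell with sg4 and 25 fell with sg6 (backgrounds 12.1% and 13.8%). All 4 members that were higher with sg6 were graded in the order of EPAS1. Leaving out sg4 replicate 2 or sg4 replicate 3 left 1 member called higher, leaving out sg6 replicate 1 or sg6 replicate 3 left 2, and leaving out sg4 replicate 3 left 3 called lower. Without the 3 libraries that stand apart the counts were 5 higher and 3 lower.

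NDRG1, a stress-responsive protein and a marker of hypoxia, had the largest of the higher values. It stood at 10.58, 9.96 and 10.11 with sg4, 11.19, 10.92 and 11.10 with sg6, and 13.73 to 14.15 in the control. The guides did not overlap, with a difference of 0.85 (SE 0.19, adjusted p = 0.00706). The call was lost without sg4 replicate 2 (adjusted p = 0.0608). DDIT4, an inhibitor of the kinase mTORC1, fell with both guides (-1.93 with sg4 and -1.09 with sg6). EGLN3, the prolyl hydroxylase PHD3 that acts on HIF alpha proteins, fell as well (-4.06 and -3.38). CA12, a membrane carbonic anhydrase, fell as well (-1.65 and -1.20). Their differences were 0.84, 0.68 and 0.45 (adjusted p = 0.0117, 0.0296 and 0.0321). DDIT4 lost its call without sg4 replicate 3 (adjusted p = 0.0665) or sg6 replicate 3 (0.058). EGLN3 lost it without sg4 replicate 2 (adjusted p = 0.174), sg4 replicate 3 (0.094) or sg6 replicate 1 (0.161). CA12 lost it when any guide library other than sg6 replicate 2 was left out, with adjusted p from 0.0533 to 0.153.

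Among the 7 members that were lower with sg6, TGFBI, a matrix protein induced by TGF-beta, stood at 14.85, 15.01 and 15.05 with sg4, 14.40, 14.49 and 14.30 with sg6, and 16.26 to 16.36 in the control. It fell with both guides and fell further with the guide that left more EPAS1 mRNA, and the 3 groups were apart, with a difference of -0.57 (SE 0.09, adjusted p = 0.000578). PDGFB, a growth factor for pericytes, differed by -0.50 (adjusted p = 0.0161), a call lost without sg4 replicate 3 (0.0957) or sg6 replicate 3 (0.0864). PFKFB4, a regulator of glycolytic flux, was called against control with sg6 alone and differed by -0.60 (adjusted p = 0.00258, and 0.072 without the 3 libraries that stand apart).

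The other 24 tested targets were not called between the guides, and they include the best known ones. SLC2A1, the glucose transporter GLUT1, stood at 12.20, 12.13 and 12.17 with sg4, 12.29, 12.22 and 11.96 with sg6, and 14.01 to 14.15 in the control. The guides overlapped, and the difference was -0.01 (SE 0.10, adjusted p = 0.965) after changes against control of -1.93 with sg4 and -1.94 with sg6. CCND1, which encodes cyclin D1, differed by 0.20 (SE 0.10, adjusted p = 0.223) after changes of -1.74 with sg4 and -1.54 with sg6. VEGFA, the main angiogenic factor, differed by -0.40 (SE 0.14, adjusted p = 0.0804) and did not pass the test. TGFA, a ligand of the EGF receptor, differed by 0.27 (SE 0.11, adjusted p = 0.133). PTHLH differed by -0.04 (SE 0.16), ADM by 0.05 (SE 0.13) and IGFBP3 by -0.20 (SE 0.14). The standard errors of SLC2A1, CCND1 and ADM are small beside the EPAS1 difference of 0.81, while smaller differences are not resolved. ENPP3 and IGFBP1 lay near the floor of the scale with both guides, where a fold change is understated.

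The hypoxia response element core, written ACGTG or GCGTG and searched on both strands, was looked for in RefSeq promoters of 300 bases (250 before to 50 after the start). A match was found in 63.5% of the promoters of the genes graded in the order of EPAS1 (47 of 74 with a promoter in the table). The share was 42.1% in the reverse order (40 of 95) and 63.8% over all tested genes with a promoter. The motif is short and common, the shares were not tested, and a match is not a binding site.

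NF-kB targets, cytokines and chemokines were mostly lower with sg6 than with sg4. Of 24 tested members (30 listed), 18 were lower and 1 higher with sg6, with a median difference of -0.55. Against control, 15 rose and none fell with sg4, while 6 rose and 7 fell with sg6 (backgrounds 13.2% rose with sg4, 15.2% rose and 13.8% fell with sg6). At an unadjusted limma p under 0.05, 19 were lower and 1 higher with sg6, and 2 fell with sg4. The number lower was 12 to 18 over all alternatives and 15 without the 3 libraries that stand apart. CXCL1, a neutrophil chemokine, stood at 13.68, 14.16 and 13.89 with sg4, 12.61, 12.93 and 12.43 with sg6, and 12.34 to 12.91 in the control. The sg4 libraries were all above the rest, and sg6 overlapped the control. The difference was -1.25 (SE 0.14, adjusted p = 6.95e-06). CXCL2 had the same pattern, at 8.56, 8.78 and 8.55 with sg4, 7.70, 7.53 and 7.70 with sg6, and 7.60 to 7.79 in the control. CXCL8, which encodes interleukin 8, lay on opposite sides of control: it rose by 0.36 with sg4 and fell by 0.53 with sg6.

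CCL2 and CSF2 were lower than control with sg6 instead. CCL2, a monocyte chemokine, stood at 8.52, 9.22 and 8.85 with sg4, 7.38, 8.00 and 7.44 with sg6, and 8.57 to 9.28 in the control. Here sg4 overlapped the control and sg6 was below both, with a guide difference of -1.26 (SE 0.20, adjusted p = 0.000442). CSF2, the growth factor GM-CSF, fell by 0.89 with sg6, and its value with sg4 minus control was 0.41 (adjusted p = 0.088). Both levels also differed between the scrambled controls of the series, by -2.03 for CCL2 and -1.0 for CSF2. Outside the list, PTX3, a soluble pattern recognition protein, rose by 1.09 with sg4 and was -0.16 (adjusted p = 0.44) with sg6. INHBA, the activin A subunit, rose by 0.91 with sg4 and was -0.36 (adjusted p = 0.054) with sg6. INHBA also differed by -1.84 between the scrambled controls (adjusted p = 3.4e-08). Among 5 tested long noncoding RNAs that are kept in the nucleus or turn over quickly, 3 were lower with sg6: SNHG1 by -0.88 (adjusted p = 0.00177), NEAT1 by -0.84 (0.0255) and GAS5 by -0.52 (0.0294). Leaving out sg4 replicate 2 or sg6 replicate 1 left SNHG1 alone. Without sg4 replicate 2 the adjusted p was 0.195 for NEAT1 and 0.152 for GAS5. Their part in the chemokine result was not tested.

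The kappa B letters that NF-kB proteins recognise were present in most of these promoters, which is a property of a list of known NF-kB targets and no independent support. The motif GGNNTTTCC, searched on both strands, was found in 12 of 16 RefSeq promoters of the called members (75%), against 6.74% of the promoters of all tested genes and 6.26% of all promoters in the table. The promoters of the chemokines whose values are given above are shown for this reason, from 250 bases before to 50 after the start, in the build GRCh38.p14, with the matches in capitals. CXCL1 lies at chr4:73869143-73869442 on the + strand, CXCL2 at chr4:74099146-74099445 on the - strand and CXCL8 at chr4:73740319-73740618 on the + strand.
CXCL1: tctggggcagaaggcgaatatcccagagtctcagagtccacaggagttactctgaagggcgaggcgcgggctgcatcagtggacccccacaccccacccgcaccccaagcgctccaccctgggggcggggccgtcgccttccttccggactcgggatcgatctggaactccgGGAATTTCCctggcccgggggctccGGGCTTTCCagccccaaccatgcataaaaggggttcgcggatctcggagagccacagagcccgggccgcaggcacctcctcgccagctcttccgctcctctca
CXCL2: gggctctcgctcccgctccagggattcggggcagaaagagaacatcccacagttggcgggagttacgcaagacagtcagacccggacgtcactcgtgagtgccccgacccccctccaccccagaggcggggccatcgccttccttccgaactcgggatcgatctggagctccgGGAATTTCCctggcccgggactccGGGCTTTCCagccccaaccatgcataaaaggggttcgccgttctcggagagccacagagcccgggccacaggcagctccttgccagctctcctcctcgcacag
CXCL8: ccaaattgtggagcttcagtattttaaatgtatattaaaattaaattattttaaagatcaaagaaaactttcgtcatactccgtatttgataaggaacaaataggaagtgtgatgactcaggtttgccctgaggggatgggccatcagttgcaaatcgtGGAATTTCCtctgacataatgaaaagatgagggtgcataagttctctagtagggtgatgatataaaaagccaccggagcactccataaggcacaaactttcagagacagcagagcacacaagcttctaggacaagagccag
The matches begin 78 and 53 bases before the start of CXCL1, 77 and 53 bases before that of CXCL2 and 91 bases before that of CXCL8. CXCL1 and CXCL2 carry the same letters at both places. All 3 genes lie close together on chromosome 4.

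Genes of cholesterol synthesis and uptake were higher with sg6 in 11 of 24 tested members and lower in none, with a median difference of 0.31. At an unadjusted limma p under 0.05 the counts were 16 and 0, where 24.2% of all tested genes passed in either direction. Against control, 14 fell and 1 rose with sg4, while 6 fell and 3 rose with sg6. The backgrounds were 12.1% fell and 13.2% rose with sg4, and 13.8% fell and 15.2% rose with sg6. The count of higher members was 9 to 14 over all alternatives and 11 without the 3 libraries that stand apart. LSS, lanosterol synthase, stood at 10.26, 10.15 and 10.27 with sg4, 10.99, 10.98 and 10.92 with sg6, and 10.86 to 10.95 in the control. The sg4 libraries were below all others, and sg6 overlapped the control. The difference was 0.74 (SE 0.08, adjusted p = 6.53e-06). SREBF2, the transcription factor that drives the pathway, fell by 0.48 with sg4 and was 0.16 (adjusted p = 0.16) with sg6. INSIG1, given above, fell with both.

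Fatty acid genes were split. Of 25 tested members of lipid storage and fatty acid metabolism, 6 were higher and 2 lower with sg6. That is 32% called, against 9.22% of all tested genes (4.86% higher and 4.36% lower). SCD, the stearoyl-CoA desaturase, stood at 13.09, 13.10 and 13.22 with sg4, 14.57, 14.19 and 14.63 with sg6, and 13.99 to 14.24 in the control. The sg4 libraries lay below all control libraries, and sg6 overlapped the top of the control range. The difference was 1.32 (SE 0.11, adjusted p = 1.63e-07), with SCD called on opposite sides of control. FASN, fatty acid synthase, fell by 0.88 with sg4 and was 0.04 (adjusted p = 0.87) with sg6. CPT1A, which carries fatty acids into mitochondria for oxidation, went the other way: it rose by 1.05 with sg4 and was 0.05 (adjusted p = 0.87) with sg6. SCD also differed by -0.86 (adjusted p = 2.7e-06) in the USP37 experiment.

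NRF2 targets and glutathione genes were higher with sg6 in 9 of 20 tested members, with none lower and a median difference of 0.32 (14 and 0 at an unadjusted limma p under 0.05). Against control, 11 rose and 1 fell with sg6, while 5 rose and 8 fell with sg4. The backgrounds were 15.2% rose and 13.8% fell with sg6, and 13.2% rose and 12.1% fell with sg4. The count was 6 to 11 over all alternatives, and 6 without the 3 libraries that stand apart. AKR1B10, an aldo-keto reductase, stood at 10.60, 10.30 and 10.29 with sg4, 11.19, 11.19 and 11.25 with sg6, and 9.11 to 9.25 in the control. It rose with both guides and more with sg6, by 0.81 (SE 0.11, adjusted p = 6e-05). Its family has near-identical members whose reads can be shared. FTL, the ferritin light chain, fell by 0.83 with sg4 and was -0.01 (adjusted p = 0.95) with sg6. ME1, malic enzyme, differed by 0.93 but lies in a stretch of chromosome 6 described below.

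Of 26 tested mitosis genes, 15 were lower and none higher with sg6, with a median of -0.36 (18 and 0 at an unadjusted limma p under 0.05). Of 34 tested DNA replication genes none was called in either direction, with a median of -0.02 (1 lower and 2 higher at an unadjusted p under 0.05). Whether the lists differ was not tested. Against control, 11 mitosis genes fell with sg6 and 2 rose with sg4 (backgrounds 13.8% and 13.2%). CCNB1, which encodes cyclin B1, stood at 11.41, 11.34 and 11.39 with sg4, 10.93, 11.05 and 10.37 with sg6, and 11.09 to 11.26 in the control. AURKA, the aurora A kinase, stood at 11.24, 11.14 and 11.10 with sg4, 10.68, 10.86 and 10.21 with sg6, and 10.88 to 11.04 in the control. In both genes sg6 replicate 3 was the lowest library. The mitosis count rests on few libraries: it was 4 without the 3 that stand apart, 8 without sg4 replicate 1, 9 without sg4 replicate 3, 8 without sg6 replicate 3 and 7 when the spread was taken from the 6 guide libraries alone.

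**Figure D3:**
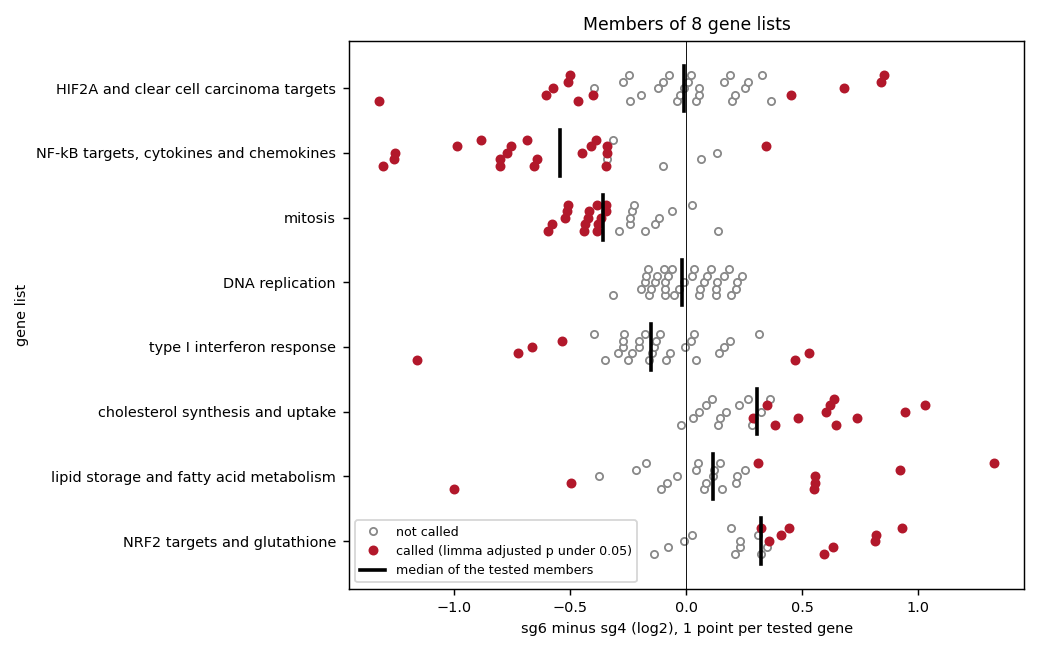
Difference sg6 minus sg4 (log2) of the tested members of 8 gene lists, with genes called in limma as filled points, genes not called as open points and a bar at the median of each list. NF-kB targets and mitosis genes lie mostly below 0, cholesterol and NRF2 genes mostly above 0, and HIF2A targets on both sides.

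Several other lists had a smaller share of calls than the NF-kB, cholesterol, NRF2 and mitosis lists. The share was 18.8% for type I interferon genes, 21.7% for glycolysis and HIF1A-preferred targets and 27.3% for the stress response genes. It was 16.7% for MHC class I genes and 18.5% for p53 targets. Over all tested genes 9.22% were called, and 24.2% had an unadjusted limma p under 0.05. Of 32 tested type I interferon genes, 2 were higher and 4 lower with sg6 (3 and 10 at an unadjusted limma p under 0.05). The counts were 1 and 1 without sg4 replicate 2, 1 and 2 without sg4 replicate 3 and 1 and 3 without sg6 replicate 3. They were 1 and 2 without the 3 libraries that stand apart and 2 and 1 with array weights. IFI6, RSAD2 and OASL lost their calls without sg4 replicate 2 (adjusted p = 0.0893, 0.0503 and 0.156). BST2, the antiviral protein tetherin, stood at 11.78, 12.04 and 11.89 with sg4, 10.59, 11.07 and 10.57 with sg6, and 11.84 to 12.29 in the control. It fell with sg6 alone, and the difference was -1.16 (SE 0.12, adjusted p = 4.72e-06). Its mean with sg6 was 10.74 ± 0.29 (SD, n = 3), beside 10.83 ± 0.02 (SD, n = 2) in the scrambled control of the USP37 experiment. Of 23 tested glycolysis and HIF1A-preferred targets, 3 were higher and 2 lower, and 1 and 1 without the 3 libraries that stand apart. HK2, hexokinase 2, fell by 0.73 with sg4 and was -0.16 (adjusted p = 0.18) with sg6. P4HA2, a collagen prolyl hydroxylase, rose by 0.27 with sg4 and fell by 0.46 with sg6. Of 22 tested genes of the unfolded protein and integrated stress response, 2 were higher and 4 lower, and 1 and 1 when sg4 replicate 2, sg4 replicate 3, sg6 replicate 3 or the 3 libraries that stand apart were left out. TRIB3, a pseudokinase induced by ATF4, fell with both guides (-1.83 with sg4 and -0.87 with sg6). Of 18 tested MHC class I genes 3 were lower and none higher (8 and 1 at an unadjusted limma p under 0.05). That count was 1 when sg4 replicate 2, sg4 replicate 3, sg6 replicate 1 or sg6 replicate 3 was left out, and 7 without sg6 replicate 2. Without sg4 replicate 2, TAP2, a peptide transporter subunit, had an adjusted p of 0.124 and B2M, the class I light chain, one of 0.14. B2M lost its call in 12 of the 21 alternatives. Of 27 tested p53 targets 4 were higher and 1 lower, and 1 and none without the 3 libraries that stand apart.

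HS6ST2 and SAMD5 had the 2 largest differences between the guides and were not graded like EPAS1, while BRINP2 (-1.49), TSPAN18 (-1.48) and FLG (1.47), next in size, were graded in its order. HS6ST2, a heparan sulfate 6-O-sulfotransferase, stood at 7.07, 7.14 and 7.23 with sg4, 10.37, 10.19 and 10.50 with sg6, and 10.20, 10.32 and 10.28 in the control. It fell with sg4 alone, while sg6 overlapped the control. The difference was 3.21 (SE 0.17, adjusted p = 1.3e-10). HS6ST2 was also low outside the HIF2a experiment: the USP37 control stood at 8.21 and 7.44, which is -2.44 from the HIF2a control (adjusted p = 1.2e-08), and the USP37 guides averaged 7.02 and 7.17. Among 17 tested genes of heparan sulfate synthesis and sulfation, 2 were higher and 3 lower with sg6, with 1 lower without sg4 replicate 2 and none without the 3 libraries that stand apart. The share called between the guides in this list was 29.4%, against 9.22% of all tested genes. NDST1, an N-deacetylase and N-sulfotransferase of the same pathway, fell by 0.74 with sg4 and was -0.23 (adjusted p = 0.15) with sg6. SULF2, which removes 6-O-sulfates, fell with both guides (-0.98 with sg4 and -1.67 with sg6), and its call between guides was lost without the 3 libraries that stand apart (adjusted p = 0.184).

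SAMD5 and AMACR were called on opposite sides of the control. SAMD5 stood at 6.16, 6.13 and 6.17 with sg4, 8.51, 8.33 and 8.71 with sg6, and 7.0, 7.0 and 6.81 in the control. The 3 groups were apart, with a difference of 2.37 (SE 0.18, adjusted p = 5.91e-08). AMACR, a peroxisomal racemase used as a marker of kidney and prostate tumours, stood at 9.72, 9.70 and 9.62 with sg4, 10.74, 10.97 and 11.12 with sg6, and 10.02 to 10.30 in the control. Its reads cannot be separated with certainty from the readthrough transcript C1QTNF3-AMACR, which differed by 1.11. HAS2, a hyaluronan synthase, rose by 0.64 with sg4 and fell by 0.59 with sg6. Among genes called with sg6 alone, CFB, complement factor B, fell by 1.15 and SLC35F6 rose by 0.90, where their values with sg4 were 0.06 (adjusted p = 0.83) and -0.21 (adjusted p = 0.19). Of the 42 genes with a guide difference of at least 1, 10 (23.8%) also differed by at least 1 between the 2 scrambled controls of the series, against 3.5% of all tested genes. The controls come from different experiments, so control and experiment cannot be told apart there.

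**Figure D4:**
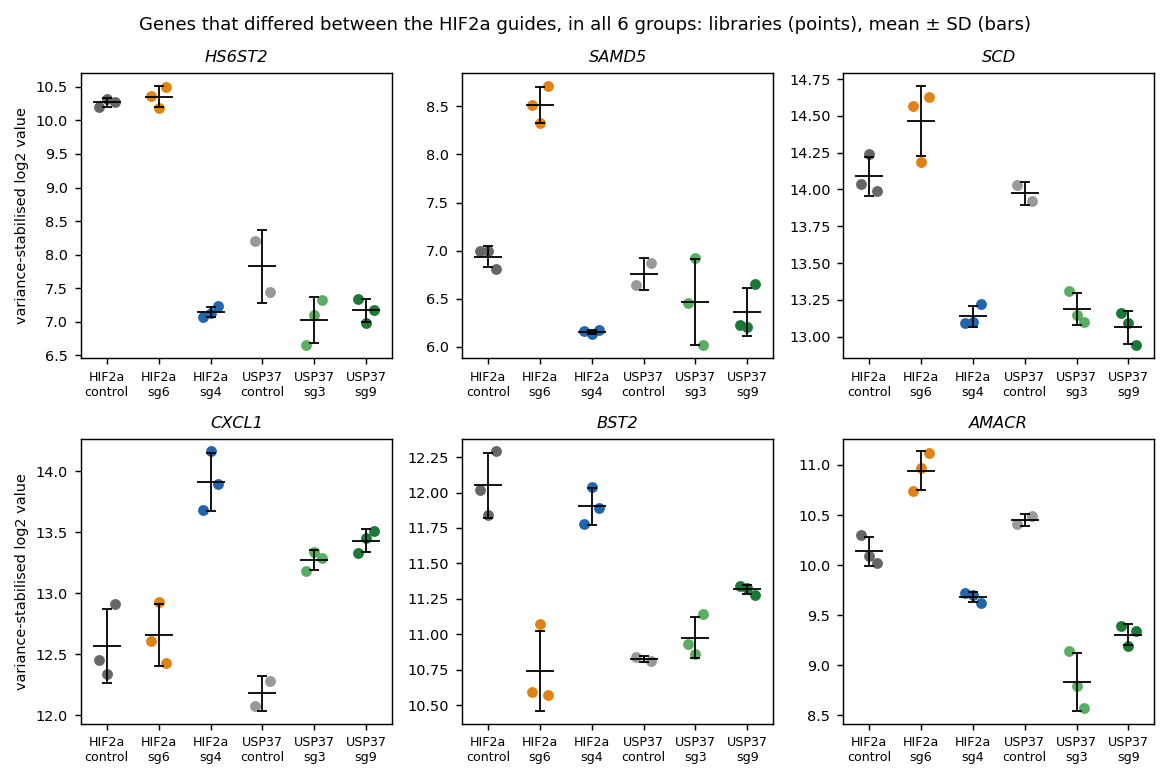
Variance-stabilised log2 values of 6 genes in all 6 groups of the series, with libraries as points and mean ± SD as bars (n = 3, and n = 2 for the USP37 control); each panel has its own vertical range. HS6ST2 and CXCL1 differ from control with sg4, BST2 with sg6, and SAMD5, SCD and AMACR with each guide in its own direction; the HS6ST2 and BST2 levels of the USP37 control are far below those of the HIF2a control.

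A stretch of chromosome 6 differed between the guides as a whole. Tested genes were ordered along each chromosome and cut into 235 blocks of about 50. The 5 blocks with the highest median difference sg6 minus sg4 were neighbours on chromosome 6, from PHF3 to the last tested gene PDCD2, with medians of 0.16, 0.19, 0.23, 0.23 and 0.24. Over the 268 genes of this stretch 55 were higher and 2 lower with sg6, which is 21.3% called, and the mean was higher with sg6 in 227 of them (84.7%). Relative to the control mean, the median gene stood at -0.17, -0.20 and -0.23 in the sg4 libraries and at 0.03, -0.01 and -0.01 in the sg6 libraries. The 3 sg4 libraries were thus low and sg6 was level with the control. The 350 tested genes of chromosome 6 before PHF3 had a median difference of -0.01. SAMD5 and ME1 lie in the stretch, as does NHSL1, which differed by 1.19 (adjusted p = 0.00298), and each of these differences is several times the median of the stretch. CTGF, a YAP/TAZ target, also lies there: its difference was 0.66 (adjusted p = 0.00727), and 0.44 (adjusted p = 0.0765) once the block median was taken out. With all block medians taken out, 1026 genes were called between the guides and EPAS1 differed by 0.81. The stretch was chosen after the block medians were seen, and DNA copy number was not measured in the data used here.

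**Figure D5:**
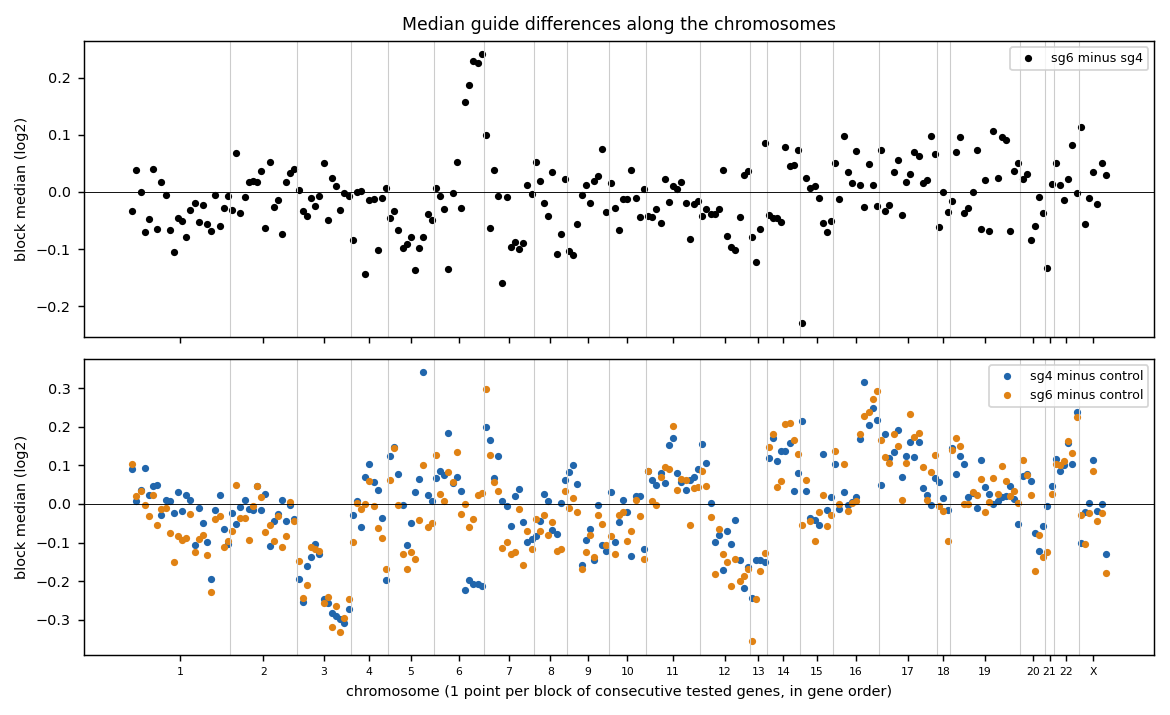
Median differences of blocks of about 50 consecutive tested genes, ordered along chromosomes 1 to 22 and X: sg6 minus sg4 above, each guide minus the scrambled control below, all in log2 units. The 5 highest blocks of the upper panel are on chromosome 6, where the sg4 medians are near -0.2 and the sg6 medians near 0; the low values on chromosome 3 are shared by both guides.

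The lowest block median was -0.23, for the block at the start of chromosome 15, where 13 genes were lower and none higher with sg6 (22 and 2 at an unadjusted limma p under 0.05). Block 4 of chromosome 4, from FIP1L1 to FAM47E-STBD1, where CXCL1, CXCL2 and CXCL8 lie, also had 13 lower and none higher (18 and 2 unadjusted), with a median of -0.14. Its 13 lower genes include these chemokines, so the count is not separate from their calls given above. On chromosome 3 the median was -0.22 with sg4 and -0.23 with sg6, so that shift cancelled between the guides.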

How the data were processed

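The authors deposited a single table of batch-corrected, variance-stabilised log2 values for 27315 genes. DESeq2, Salmon, STAR 2.5.2b, cutadapt and the build hg19 are listed, with no role or order, per the submitters' processing notes. The batch variable is not given in the sources used here. Means over the libraries of each replicate number were equal to within 6.4e-14 in every gene, so a term for that number had been removed, and p-values of fits without it tend to be too small. The genes tested had a mean at or above the 1st percentile of all gene means plus 1 log2 unit. Group means of all 17 libraries were fitted with limma 3.58.1 in R 4.3.3 (empirical Bayes, mean-variance trend, 11 residual degrees of freedom), with Benjamini-Hochberg adjustment within a contrast. The script was tested on simulated data. Chromosomes and gene order were taken from RefSeq GRCh38.p14 by symbol (98.7% of tested genes matched), without coordinates.

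Same-numbered sg4 and sg6 libraries deviated together (correlations of deviations 0.107, 0.152 and 0.212), a hint from the data that the numbers pair them, which the labels do not state. The sg6 and control numbers did not (0.144, -0.547 and -0.540). Unlike numbers gave larger values: 0.593 for sg6 replicate 2 with control replicate 3, and 0.559 for sg6 replicate 3 with control replicate 2. The other unlike pairs of sg6 and control ran from -0.159 to 0.081. For sg4, replicate 2 with control replicate 3 gave 0.311 and replicate 3 with control replicate 2 gave 0.283. Its other unlike pairs with control ran from -0.300 to 0.037. What these values mean for the removed term was not tested.

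Members and lists were chosen with earlier results of these data known. Named genes are EPAS1, HIF1A, ARNT, VHL and USP37, the 8 highest and 8 lowest differences, 4 of each direction per class, up to 4 called members of each of 30 lists, HIF2A targets and 5 neighbours on each side of EPAS1. Some of these genes are not reported here.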

Additional observations from a re-analysis of the deposited data

How the results depend on the processing

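The EPAS1 difference stayed positive and called in all 21 alternatives. Array weights gave 573 called genes, 56 graded in the order of EPAS1 and 147 called with sg6 alone. Leaving out sg6 replicates 2 and 3 and control replicate 2 gave 413 called genes, of which 60 were graded in the order of EPAS1, 47 in the reverse order, 155 with sg4 alone, 97 with sg6 alone and 9 on opposite sides. With the replicate block, 832 genes were called and 78 were graded in the reverse order. Calls ended by the block included those of BBC3 (adjusted p = 0.0606), DNAJB11 (0.0788), DUSP4 (0.0766), GAS5 (0.0531), RPL13 (0.0853) and UQCRC1 (0.0864). A block on the 6 guide libraries alone, chosen after seeing the data, gave 1258 called genes.

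Leaving out 1 library at a time gave 500 to 1593 called genes and an EPAS1 difference of 0.74 to 0.92. The same step gave 59 to 123 genes in the order of EPAS1, 57 to 147 in the reverse order, 127 to 435 with sg4 alone, 188 to 575 with sg6 alone and 8 to 23 on opposite sides. The lowest counts came without sg4 replicate 2, except on opposite sides (without control replicate 1), and the highest without sg6 replicate 2. Causes were not tested. Depth is unknown, so genes near the floor of the scale are limited in a way that cannot be stated per library. Over all alternatives, named genes that were called kept direction and call in 2180 recomputed values and lost the call in 283.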

Other observations

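Of 25 tested mesenchymal and matrix genes 3 were higher and 3 lower with sg6, and 19 were not called. That is 24% called, against 9.22% of all tested genes (4.86% higher and 4.36% lower). TNC, the matrix protein tenascin C, rose by 1.91 with sg4 and by 1.29 with sg6, and the guides differed by -0.63 (SE 0.13, adjusted p = 0.00297). COL8A1, a short-chain collagen, fell with both guides (-1.23 with sg4 and -0.57 with sg6), so both matrix genes followed the order of EPAS1. CDH11, a mesenchymal cadherin, took the reverse order: it rose by 1.09 with sg4 and by 1.91 with sg6, and lost its call between guides without sg6 replicates 2 and 3 and control replicate 2 (adjusted p = 0.0628). Of 23 tested semaphorins and plexins 1 was higher and 4 lower (21.7% called), and 1 was lower without sg4 replicate 2. SEMA3C, a secreted guidance factor, rose by 1.25 with sg4 and by 0.50 with sg6, and SEMA6B, a membrane semaphorin, rose by 0.97 and by 1.45. Of 20 tested tetraspanins 3 were higher and 3 lower (30% called), and none was higher without sg4 replicate 2 or sg4 replicate 3. CD82, a tetraspanin that restrains cell motility, rose by 0.78 with sg4 and was 0.14 (adjusted p = 0.37) with sg6.

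Host genes of small nucleolar RNAs were grouped after their values were seen, so their count is a description. Of 17 tested SNHG genes 3 were lower with sg6, none was higher and 14 were not called, with a median difference of -0.26 (7 and 0 at an unadjusted limma p under 0.05). SNHG12 stood at 7.92, 8.29 and 8.25 with sg4, 7.26, 7.08 and 6.95 with sg6, and 7.68 to 8.23 in the control. SNHG3 differed by -0.99 (SE 0.16, adjusted p = 0.000346). Over all tested genes 9.22% were called between the guides (4.86% higher and 4.36% lower), against 3.85% of cytosolic ribosomal protein genes. Of 78 tested cytosolic ribosomal protein genes 3 were higher and none lower with sg6 (13 and 1 at an unadjusted limma p under 0.05), and none was called higher without the 3 libraries that stand apart.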
